A study of Mus musculus with 4 samples.

Results

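The 10 mitochondrially encoded messenger RNAs described here are mt-Nd1, mt-Nd2, mt-Nd3, mt-Nd4, mt-Nd5, mt-Cytb, mt-Co1, mt-Co2, mt-Co3 and mt-Atp6. They were picked by symbol from the 31053 genes in each of 4 count matrices, and all 10 were found. They were followed across cell classes named by standard markers and across both inhibitor groups. The brains came from 4 mice, C57BL/6J males aged 90 days. Each whole brain was digested with enzymes and gave 1 library of single cells captured in droplets (10x Genomics, 3′ end chemistry). The strain is an inbred laboratory strain, and no allele or transgene is named in the labels. For 2 animals no inhibitors were used. For the other 2 animals the transcription inhibitors actinomycin D and triptolide were present from perfusion through digestion, and the translation inhibitor anisomycin was present during dissection and digestion. Cells were not sorted, and per the labels the libraries share a batch.

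Mitochondria carry a small circular genome of their own. A dedicated RNA polymerase copies it into long precursors, which are cut mostly at the transfer RNAs between the genes, and the resulting messenger RNAs receive short poly(A) tails. Their products are core subunits of the respiratory chain: the Nd proteins belong to complex I, Cytb to complex III, the Co proteins to complex IV and the Atp proteins to complex V. Most other subunits of these complexes are encoded in the nucleus and imported. Of the inhibitors, actinomycin D binds DNA, triptolide acts on a nuclear transcription factor complex, and anisomycin acts on cytosolic ribosomes. In single-cell data a high share of mitochondrially encoded RNA is also widely used to discard damaged cells.

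Because the assay reads molecules near their poly(A) tail, the last 30 bases of each messenger RNA are shown here, 5′ to 3′, with the last letters of the reading frame in capitals. They were read from the GENCODE transcripts of the build used for the files (mm10, the same assembly as GRCm38), in genome order. In 7 of the 10 the capitals are a complete stop codon, while in mt-Co3, mt-Nd4 and mt-Cytb the transcript ends on a single T that the poly(A) tail extends to a stop codon.
mt-Nd1: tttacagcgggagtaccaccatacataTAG
mt-Nd2: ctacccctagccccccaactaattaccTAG
mt-Co1: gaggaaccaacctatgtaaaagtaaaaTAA
mt-Co2: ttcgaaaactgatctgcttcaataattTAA
mt-Atp6: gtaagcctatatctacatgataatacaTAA
mt-Co3: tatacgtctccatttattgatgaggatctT
mt-Nd3: acacaaaaaggattagaatgaacagagTAA
mt-Nd4: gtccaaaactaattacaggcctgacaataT
mt-Nd5: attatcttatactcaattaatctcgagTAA
mt-Cytb: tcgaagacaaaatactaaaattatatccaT

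All 10 lie on the plus strand of the mitochondrial chromosome as single-exon genes without an annotated untranslated region. The first 5 in genome order are mt-Nd1 (ENSMUSG00000064341, chrM:2751-3707), mt-Nd2 (ENSMUSG00000064345, chrM:3914-4951), mt-Co1 (ENSMUSG00000064351, chrM:5328-6872), mt-Co2 (ENSMUSG00000064354, chrM:7013-7696) and mt-Atp6 (ENSMUSG00000064357, chrM:7927-8607). They are followed by mt-Co3 (ENSMUSG00000064358, chrM:8607-9390), mt-Nd3 (ENSMUSG00000064360, chrM:9459-9806), mt-Nd4 (ENSMUSG00000064363, chrM:10167-11544), mt-Nd5 (ENSMUSG00000064367, chrM:11742-13565) and mt-Cytb (ENSMUSG00000064370, chrM:14145-15288). mt-Atp6 shares 43 bases with mt-Atp8, and mt-Nd4 shares 7 bases with mt-Nd4l, and each pair is read from 1 messenger RNA with the listed gene at its 3′ end. mt-Nd5 shares 14 bases with mt-Nd6, which lies on the other strand. Nuclear copies of mitochondrial DNA exist in the mouse genome, and how reads that match both were handled was not tested.

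The libraries held between 5134359 and 7529804 unique molecular identifiers (UMIs, 1 for each RNA molecule captured). Of 12487 barcodes 9861 were kept as cells: 2207 and 2755 came from the animals without inhibitors, 2089 and 2810 from those with. Each cell was kept only if mitochondrially encoded genes gave at most 20% of its UMIs, so the values below are bounded by the quantity they describe. Pairs of libraries shared 9 to 13 barcodes. Clustering without the mitochondrially encoded genes and the study's activation genes gave 30 clusters, of which 1 with 141 cells stayed unnamed, and 14 marker-based classes. The 9 classes with at least 20 cells in every animal were compared, and each of their clusters passed at least 5 markers of its own type. A mural-like cluster of 140 cells passed all 8 endothelial markers too. The study's activation genes, 34 genes that include early-response, histone and heat shock genes, were called higher without inhibitors for 22 of 31 tested in microglia-like cells, where 0.447% of all genes were. The study chose only part of that list on these samples and the rest on sorted microglia of other mice. For the part chosen here the count is not independent evidence.

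In kept cells the 10 messenger RNAs gave 1382107 of 20720562 UMIs and 99.7% of all UMIs from the 13 mitochondrially encoded genes in the matrices. Their share of a library's UMIs was 6.56% and 6.75% without inhibitors and 6.50% and 6.83% with inhibitors, so the groups overlapped. Over all barcodes, before any cell was removed, 7.47% and 7.50% without inhibitors stood against 7.76% and 7.87% with them, and here the groups did not overlap. A share of UMIs cannot tell fewer mitochondrial RNA molecules from more molecules of other kinds.

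Per kilobase of gene, mt-Atp6 was the highest at 214 UMIs per 10000 and mt-Co3 the next at 186, as means of 4 animals over all kept cells. mt-Cytb at 83.0 and mt-Nd1 at 72.8 followed, then mt-Co1 at 59.3 and mt-Co2 at 58.4 per 10000 and kilobase. The rest were mt-Nd4 at 38.5, mt-Nd2 at 17.5, mt-Nd3 at 11.6 and mt-Nd5 at 1.64. The per-kilobase level of mt-Atp6 was above that of mt-Co3 in each of the 9 compared classes, with the smallest gaps in choroid plexus-like cells, 211 against 208, and in astrocyte-like cells, 304 against 300. The animals' ranges of mt-Co1 and mt-Co2 overlapped, and those of all other neighbours in this order did not. Of the 5 complex I genes, 4 took the lowest places in this per-kilobase order. Since a 3′ tag reads 1 molecule whatever its length, the order without the length is given too. There mt-Atp6 ranked first in 19 of the 36 sums of 9 classes in 4 animals, and mt-Co3 in 17. In astrocyte-like cells mt-Co3 stood at 235 UMIs per 10000 and mt-Atp6 at 207. mt-Co2 held place 7 in 34 sums and mt-Nd4 place 6 in 30, so mt-Nd4 was mostly above mt-Co2. Over all kept cells the level of mt-Atp6 was 146 ± 2.81 UMIs per 10000 (SD, n = 4 animals), and that of mt-Nd5 was 2.98 ± 0.0808. The other 3 mitochondrially encoded messenger RNAs were sparse, with 1.09 UMIs per 10000 for mt-Nd4l, 0.638 for mt-Atp8 and 0.170 for mt-Nd6.

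Most kept cells held most of the 10. After cells were thinned to 1000 UMIs, which kept 1920, 2357, 1812 and 2335 cells, mt-Co3 was found in 99.7% ± 0.168 of cells and mt-Nd2 in 76.3% ± 1.81 (SD, n = 4 animals). Without thinning these shares were 99.9% and 88.0% at a median of 1584 UMIs. mt-Nd3 was found in 30.9% of thinned cells and mt-Nd5 in 25.02%, against 47.8% and 40.1% without thinning. Free RNA in droplets also gives such UMIs. In erythrocyte-like cells, whose mature form lacks mitochondria, 20, 31, 5 and 12 thinned cells remained, of which 0% to 20% held mt-Nd3 and 14.4% ± 6.53 held mt-Nd5 (SD, n = 4 animals), with unthinned shares of 59.2% and 54.9% at a median of 5793 UMIs. The other members were found in far more of these thinned cells, from 49.2% for mt-Nd2 to 96.8% for mt-Atp6, as means of the 4 animals.

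Cell classes differed in the share of UMIs from the 10 messenger RNAs more than the inhibitor groups did. Astrocyte-like cells, the glia that clear glutamate and feed neurons, stood highest with 10.2% and 10.2% without inhibitors and 9.91% and 10.9% with inhibitors, a mean of 10.3% ± 0.428 (SD, n = 4 animals). Microglia-like cells, the resident macrophages of the brain, stood lowest with 4.20%, 4.74%, 4.35% and 4.67% in the same order, a mean of 4.49% ± 0.256. Neuron-like cells were second with 8.42%, 8.35%, 8.86% and 9.84%. Astrocyte-like cells ranked first, neuron-like cells second and microglia-like cells last in all 4 animals. The range of astrocyte-like cells did not overlap that of neuron-like cells, and the range of microglia-like cells did not overlap that of endothelial-like cells, the next lowest mean. It did overlap that of macrophage/monocyte-like cells, 4.47% to 6.80%.

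Between these ends, neighbours in the order overlapped. Choroid plexus-like cells, which secrete cerebrospinal fluid, had a mean of 7.38% ± 0.718, and ependymal-like cells, the ciliated lining of the ventricles, 7.25% ± 0.466 (SD, n = 4 animals each). Oligodendrocyte-like cells, which make myelin, followed at 6.49% ± 0.549, and mural-like cells, the contractile cells of vessel walls, at 6.19% ± 0.555. Macrophage/monocyte-like cells had 5.81% ± 1.01 and endothelial-like cells, which line vessels, 5.74% ± 0.309. These are descriptions without a test, since the same cells were used to form the classes.

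**Figure D1:**
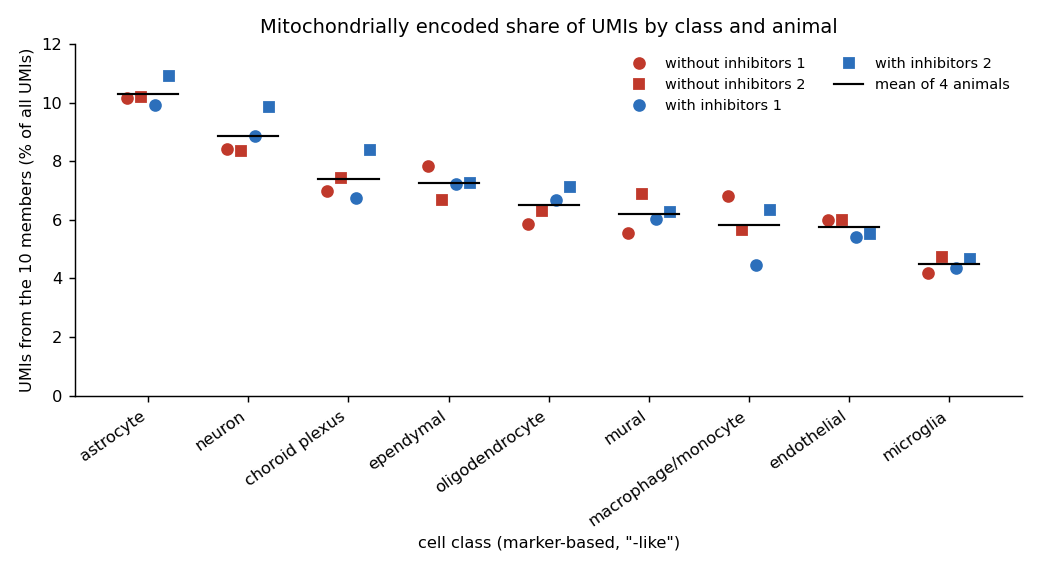
Share of UMIs from the 10 mitochondrially encoded messenger RNAs (y axis, % of all UMIs) in the 9 compared classes (x axis), 1 point per animal, with the mean of 4 animals as a line. Astrocyte-like cells (9.91% to 10.9%) lay above all others and microglia-like cells (4.20% to 4.74%) below endothelial-like cells (5.42% to 6.01%) but overlapping macrophage/monocyte-like cells (4.47% to 6.80%), while most classes between them overlapped.

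Part of this order depended on the limit on the mitochondrial share, on the summary used and on single clusters. Without the limit, neuron-like cells had the highest mean at 12.6%, choroid plexus-like cells 11.7% and astrocyte-like cells 11.5%, and microglia-like cells stayed lowest of the 9 at 4.51%. With a limit of 10%, astrocyte-like cells were again first of the 9 at 7.24%, and choroid plexus-like cells were last at 4.18%. Neuron-like cells were then at 5.53%, below ependymal-like, oligodendrocyte-like and mural-like cells at 6.34%, 6.12% and 5.62%. As medians over cells, neuron-like cells had 8.33% and 6.23% without inhibitors and 5.85% and 8.73% with them. The 6.23% and 5.85% lay below the same animals' mural-like cells, 6.92% and 5.93%, and oligodendrocyte-like cells, 6.52% and 6.57%. Thinned to 1000 UMIs per cell, the means were 10.4% for astrocyte-like, 9.46% for neuron-like and 4.42% for microglia-like cells. Without the cluster that also passed endothelial markers, mural-like cells had a mean of 8.29% ± 0.915 (SD, n = 4 animals). That mean lay above the 7.38% of choroid plexus-like and the 7.25% of ependymal-like cells. Choroid plexus-like cells without their cluster of high UMIs had a mean of 5.88% ± 1.33.

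Barcodes above the 20% limit were unevenly spread. In all, 525 barcodes, or 5.05% of those that had enough genes, exceeded it, when each was placed in the class of its nearest kept neighbours. By animal this was 5.84% and 5.20% in the group without inhibitors, against 4.57% and 4.65% in the group with them. The highest shares were next to neuron-like cells, 23.6% and 17.5% without inhibitors and 10.96% and 13.8% with inhibitors, on 65 barcodes. Next to microglia-like cells there were 4 such barcodes, or 0.126%. Astrocyte-like cells had 228 barcodes above the limit, or 10.4%, choroid plexus-like cells 78, or 11.2%, and ependymal-like cells 25, or 11.8%.

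The relation of the share with cell depth also differed by class. Within animals, Spearman's rho between a cell's total UMIs and its share of mitochondrially encoded UMIs lay between -0.626 and -0.420 in oligodendrocyte-like cells and between -0.502 and -0.443 in endothelial-like cells. In choroid plexus-like cells it lay between 0.029 and 0.182, and in neuron-like cells between -0.004 and 0.281. Each coefficient is over the cells of 1 animal, and the total is the denominator of the share.

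The make-up of the mitochondrially encoded UMIs differed between classes for several single genes. Ependymal-like cells stood out most. mt-Co1, the catalytic core subunit of cytochrome c oxidase, gave 19.6% ± 0.331 of the UMIs of the 10 in ependymal-like cells (SD, n = 4 animals; 19.7%, 19.8%, 19.1% and 19.7%). In the 8 other compared classes its mean was between 10.6% and 16.4%, and no animal of another class reached the ependymal range. mt-Nd1, a membrane subunit of complex I, gave 5.13% and 5.49% without inhibitors and 5.46% and 5.01% with inhibitors in ependymal-like cells, below every animal of the other compared classes. mt-Co2, which receives electrons from cytochrome c, was also lowest there, at 4.72% ± 0.143, again apart from all other compared classes.

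Neuron-like cells differed in the opposite direction for the same pair of genes. Their mt-Nd1 share had the highest mean, 13.3% ± 0.843, which overlapped other classes, and their mt-Co1 share had the lowest, 10.6% ± 0.714, with 11.2%, 10.1%, 9.89% and 11.3% in the 4 animals, below every animal of the other compared classes. The ratio of the highest to the lowest class mean of this share was 2.51 for mt-Nd1, 1.84 for mt-Co1 and 2.56 for mt-Nd3, which encodes a small complex I subunit and gave 0.763% in neuron-like and 0.298% in ependymal-like cells. For mt-Co3, the third core subunit of complex IV, the ratio was 1.17, the smallest of the 10.

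Vessel-wall and immune cells showed further differences. mt-Atp6, part of the proton channel of ATP synthase, gave 26.2% ± 0.432 in mural-like cells, above every animal of the other compared classes, and 19.5% ± 0.482 in choroid plexus-like cells, the lowest mean. mt-Co3 was lowest in mural-like cells, 19.7% ± 0.295, apart from the other compared classes. mt-Cytb, the only mitochondrially encoded subunit of complex III, was lowest in macrophage/monocyte-like cells at 11.7% ± 0.428, and mt-Nd2 was lowest there too at 1.74% ± 0.189, both apart from the other compared classes. mt-Nd4 was highest in astrocyte-like cells, 8.93% ± 0.0569, and lowest in oligodendrocyte-like cells, 6.76% ± 0.0857. mt-Nd5 was between 0.343% in macrophage/monocyte-like and 0.556% in choroid plexus-like cells, with overlap among classes.

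**Figure D2:**
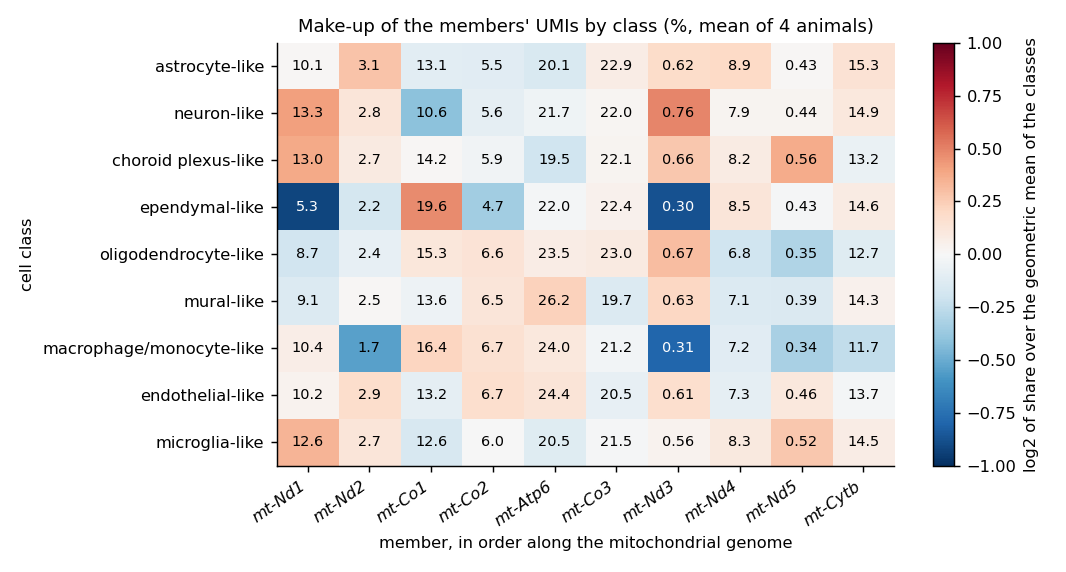
Make-up of the UMIs of the 10 messenger RNAs, in genome order (x axis), in the 9 compared classes (y axis). Numbers are the percent of the UMIs of the 10 as means of 4 animals, and colour is log2 of that percent over the geometric mean of the classes. Ependymal-like cells combine the highest mt-Co1 (19.6%) with the lowest mt-Nd1 (5.27%), and neuron-like cells the lowest mt-Co1 (10.6%) with the highest mt-Nd1 (13.3%).

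In levels, without the make-up, astrocyte-like cells held the highest mean for mt-Nd2, mt-Nd4, mt-Nd5, mt-Cytb, mt-Co2, mt-Co3 and mt-Atp6. mt-Nd1 and mt-Nd3 were highest in neuron-like cells and mt-Co1 in ependymal-like cells. mt-Nd1 reached 118 UMIs per 10000 in neuron-like cells against 38.2 in ependymal-like cells, and it was the single gene of the 10 with its lowest level in ependymal-like cells. mt-Co1 was 142 per 10000 in ependymal-like cells against 56.7 in microglia-like cells. For the other 8 the lowest level was in microglia-like or macrophage/monocyte-like cells.

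Within classes, clusters differed as well. Choroid plexus-like cells formed 2 clusters. The larger, with 582 cells and a median of 1964 UMIs, held 4.88% and 4.89% of its UMIs in the 10 messenger RNAs without inhibitors and 6.04% and 7.70% with inhibitors. The smaller, with 36 cells and a median of 12582.5 UMIs, held 14.3%, 13.5%, 12.9% and 12.7%. Of these 36 cells, 12 and 17 came from the animals without inhibitors and 4 and 3 from those with inhibitors. Malat1, an RNA kept in the nucleus, gave 4.85 per 10000 UMIs of other genes in the larger cluster and 76.5 in the smaller, against 152 to 1765 in the clusters outside the class. Within the larger cluster the groups did not overlap, with the animals with inhibitors higher, whereas in the smaller cluster the animals without inhibitors were higher.

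**Figure D3:**
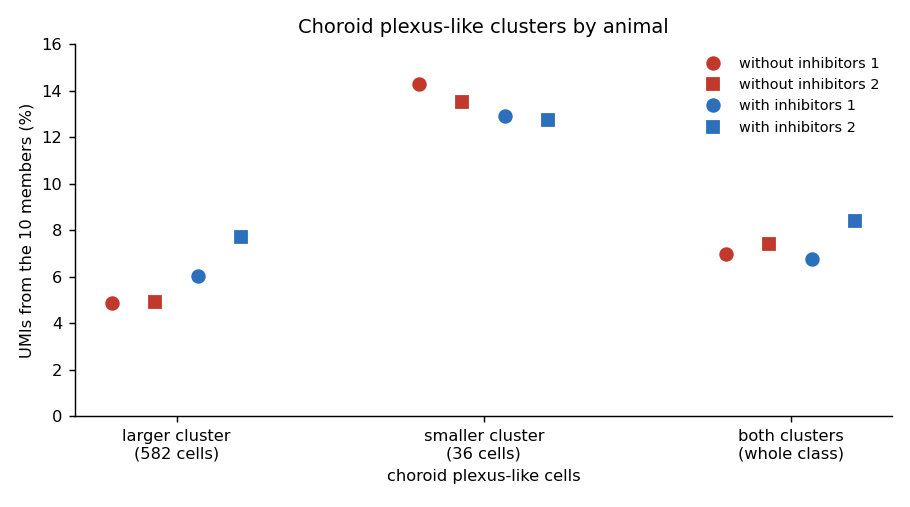
Share of UMIs from the 10 messenger RNAs (y axis, %) in both choroid plexus-like clusters and in the whole class (x axis), 1 point per animal. The larger cluster lay between 4.88% and 7.70% and the smaller between 12.7% and 14.3%, and the direction between groups was opposite between the clusters.

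Astrocyte-like clusters lay at 11.5%, 9.71% and 9.92%, with the cluster led by Gdf10, a marker of Bergmann glia, lower at 6.37%. The mural-like cluster led by the smooth muscle genes Acta2 and Tagln lay at 9.91%, and the other mural-like clusters at 5.55% and 7.38%. Macrophage/monocyte-like cells led by Pf4 and Mrc1, genes of border macrophages, lay at 7.72%, and those led by the antigen presentation genes Cd74 and H2-Aa at 4.55%. Microglia-like clusters stayed between 3.99% and 5.69%.

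The comparison of brains digested without and with inhibitors asks whether any of the 10 differed with the inhibitors. All brains were digested, so a change during digestion that both groups shared would not show. In all cells together none was called, where a call needed an adjusted p below 0.05 together with a log2 fold change beyond 0.58 in either direction. Of all 13778 genes tested, 0.0363% were called. Levels are counts-per-million values (CPM) scaled by trimmed means (TMM). mt-Nd3 had 431 and 437 CPM without inhibitors against 368 and 388 with inhibitors, a log2 fold change of 0.20 ± 0.0853 (SE, edgeR quasi-likelihood test, adjusted p = 0.739, n = 2 animals per group). This was the largest difference of the 10 in all cells and the single one with an unadjusted edgeR p under 0.05, which 6.66% of all genes had. mt-Co3, with 14663 and 15011 CPM against 13672 and 15025, had the smallest, 0.05 ± 0.0697 (adjusted p = 0.933). All 10 fold changes were above 0, with a median of 0.10 against -0.00 over all genes, and 8 of 10 did not overlap between groups, as did 36.9% of all genes. Because the 10 share libraries and precursors, counts among them, here and in the classes below, are not counts of independent observations. With scaling by total UMIs alone, 4 of these 10 changed sign and the median was 0.01. The median was 0.03 without the choroid plexus-like cluster of 36 cells and 0.02 with a limit of 10%, with 2 sign changes in each, 0.05 without replicate 1 with inhibitors and 0.06 without replicate 2 without inhibitors. The 95% intervals of the 10 ran from -0.14 to 0.40, so that no interval reached the fold needed for a call.

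In oligodendrocyte-like cells all 10 were lower without inhibitors, and 0 of 10 were called, where 0.2% of 6502 genes were. mt-Cytb had 7380 and 7802 CPM without inhibitors against 8376 and 9584 with them, a log2 fold change of -0.24 ± 0.0947 (SE, edgeR, adjusted p = 0.343, n = 2 animals per group). mt-Co3 had 13180 and 14201 CPM against 15081 and 17413, or -0.25 ± 0.0969 (adjusted p = 0.343). mt-Nd5, with 191 and 214 CPM against 259 and 242, had the lowest fold change of the 10, -0.31 ± 0.139 (adjusted p = 0.449). Of the 10, 9 did not overlap between groups, against 38.8% of all genes, and 6 had an unadjusted p under 0.05, against 9.6% of all genes. As in all cells, the 10 are not independent of each other. The median was -0.19, against -0.01 over all genes, and the sign of all 10 held in every alternative fit. The size was less stable: without the mitochondrial limit, without replicate 2 with inhibitors, or without replicate 1 without inhibitors, 0 of 10 had an unadjusted p under 0.05, and the medians were -0.12, -0.12 and -0.14. The class share moved in the same direction, from 6.69% and 7.13% with inhibitors to 5.85% and 6.29% without, without overlap. With no mitochondrial limit these shares overlapped, at 7.04% and 7.64% with inhibitors and 6.37% and 7.17% without. Among the other mitochondrially encoded genes, mt-Nd6, the one messenger RNA read from the other strand, had 10.1 and 7.03 CPM against 23.1 and 20.5, on 7 and 4 against 15 and 17 UMIs, a log2 fold change of -1.30 ± 0.498 (edgeR, adjusted p = 0.334).

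In endothelial-like cells the direction was the opposite, again without a call, where 0.036% of 8334 genes were called. mt-Nd3 had 363 and 413 CPM without inhibitors against 315 and 311 with them, a log2 fold change of 0.32 ± 0.113 (SE, edgeR, adjusted p = 0.826, n = 2 animals per group). mt-Co1 had 7670 and 8723 CPM against 6745 and 7305, or 0.22 ± 0.0846 (adjusted p = 0.878). mt-Nd1 had 6164 and 5864 CPM against 5494 and 5936, the smallest difference at 0.07 ± 0.0824 (adjusted p = 0.954). All 10 were above 0, with a median of 0.16 against 0.00 over all genes, 9 of 10 did not overlap between groups, against 34.1% of all genes, and 5 had an unadjusted p under 0.05, against 5.3%. Here too the 10 are not independent of each other. Their sign held in every alternative fit, but the count of 5 was 0 without replicate 2 without inhibitors, 2 without replicate 1 of either group and 3 without replicate 2 with inhibitors. The share of UMIs was 6.01% and 6.00% without inhibitors and 5.42% and 5.52% with them.

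In choroid plexus-like cells 0 of 10 were called, although 5.27% of 4653 genes were, and 8.19% had an adjusted p under 0.05 at any fold. mt-Co1 had 11470 and 11343 CPM without inhibitors against 8556 and 10619 with them, a log2 fold change of 0.25 ± 0.0895 (SE, edgeR, adjusted p = 0.0780, n = 2 animals per group). mt-Nd3 had 563 and 506 CPM against 411 and 455, or 0.31 ± 0.117 (adjusted p = 0.103). In this class 9 of 10 were above 0, 4 did not overlap between groups, against 49.3% of all genes, and 4 had an unadjusted p under 0.05, against 20.7%. Without the smaller cluster of 36 cells, 9 of 10 were below 0 with a median of -0.27, and mt-Co1 was at -0.31 ± 0.1002 (edgeR, adjusted p = 0.0776), so the direction in this class rested on that cluster. It also turned under scaling by total UMIs alone, where the median of the 10 was -0.05 and that of all genes -0.18, and without the mitochondrial limit, where 0 of 10 were above 0 with a median of -0.18. Without replicate 1 with inhibitors 5 of 10 were above 0, with a median of -0.02. With 1 animal left out, the medians otherwise lay between 0.09 and 0.30.

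In microglia-like cells, in which the activation genes were called, none of the 10 was, where 0.47% of 8726 genes were. The median log2 fold change of the 10 was 0.01, and the range was -0.02 to 0.16. mt-Nd1 had 5410 and 5942 CPM without inhibitors against 5396 and 5948 with them, a log2 fold change of 0.00 ± 0.0965 (SE, edgeR, adjusted p = 1.00, n = 2 animals per group). mt-Co3 had 8907 and 10386 CPM against 8970 and 10428, or -0.01 ± 0.0992 (adjusted p = 0.999). In both genes the groups overlapped. All 95% intervals of the 10 lay between -0.24 and 0.39, and 1 of 10 did not overlap between groups, against 34% of all genes. None had an unadjusted p under 0.05, against 6.3% of all genes.

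The other classes had no call among the 10 either. The share of genes called was 0.0478% in astrocyte-like cells, 0% in ependymal-like, 0.699% in macrophage/monocyte-like, 0.113% in mural-like and 0.0296% in neuron-like cells. In astrocyte-like cells the 10 lay between -0.09 and 0.03 (log2), and in ependymal-like cells between -0.14 and 0.08, with overlap of the groups for all 10 in both, while 33.7% and 31.6% of all genes did not overlap. In neuron-like cells mt-Nd1 had 10774 and 10330 CPM without inhibitors against 12551 and 13465 with them, a log2 fold change of -0.30 ± 0.188 (SE, edgeR, adjusted p = 0.999, n = 2 animals per group). In neuron-like cells 4 of 10 did not overlap, against 26% of all genes. The neuron-like median was -0.11, but without the 20% limit all 10 were above 0 with a median of 0.26, so the direction there depended on the limit. Without replicate 2 with inhibitors the neuron-like median was 0.03. In macrophage/monocyte-like cells, with 715 genes tested, mt-Nd5 had 16 and 21 UMIs against 4 and 11, and a log2 fold change of 0.75 ± 0.503 (edgeR, adjusted p = 0.999). There 2 of 10 did not overlap, against 33.4% of all genes, and the median of 0.16 was 0.01 without replicate 1 with inhibitors. In mural-like cells the 10 lay between -0.02 and 0.20, and 1 of 10 did not overlap, against 35.1% of all genes. Without the mural-like cluster that also passed endothelial markers, 9 of the 10 were below 0 with a median of -0.14, and without replicate 2 without inhibitors the median was -0.06. In these 5 classes none of the 10 had an unadjusted p under 0.05, against 5.13% of all genes in astrocyte-like, 4.11% in ependymal-like, 5.45% in macrophage/monocyte-like, 6.62% in mural-like and 2.31% in neuron-like cells. The widest intervals were those of the sparse mt-Nd3 and mt-Nd5, from -0.82 to 0.94 and from -0.89 to 0.92 in neuron-like cells and from -0.90 to 1.13 and from -0.38 to 1.89 in macrophage/monocyte-like cells. For mt-Atp6 the interval was -0.43 to 0.24 in neuron-like cells, inside the fold needed for a call, and -0.32 to 0.66 in macrophage/monocyte-like cells.

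**Figure D4:**
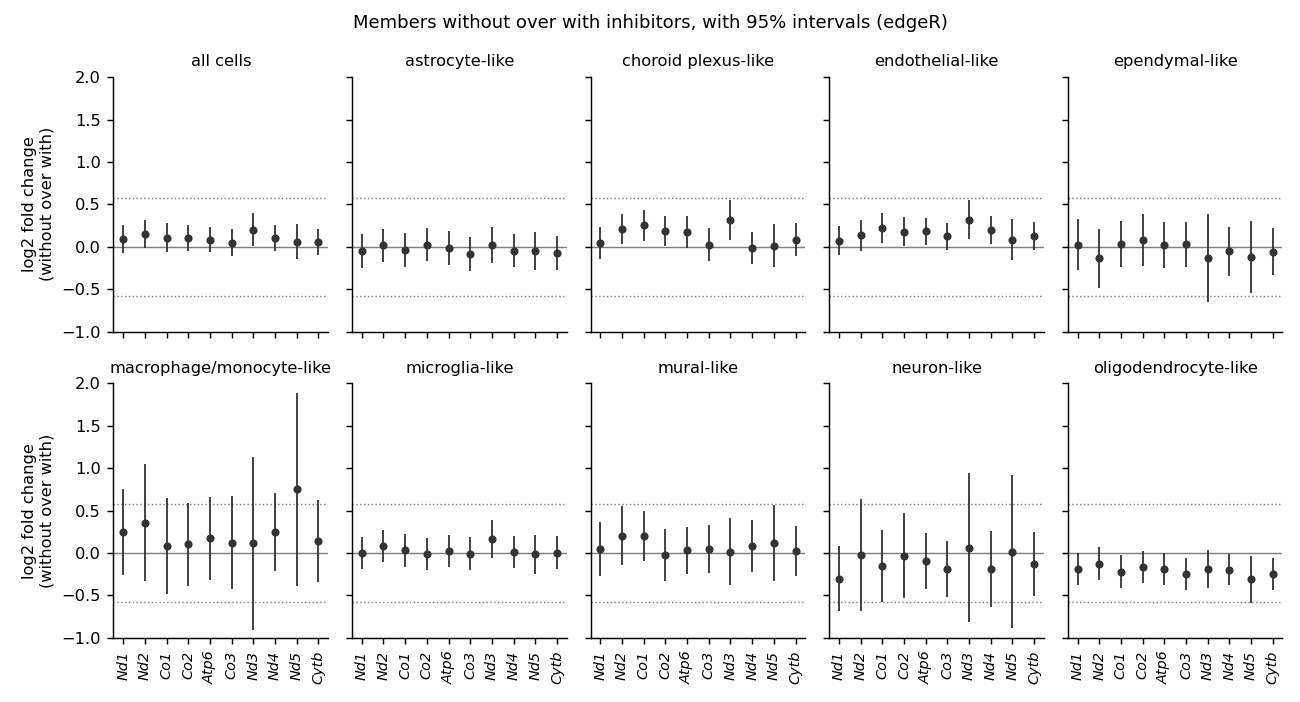
Log2 fold change without over with inhibitors (y axis) of the 10 messenger RNAs (x axis) in all cells and in the 9 compared classes, with 95% intervals from edgeR. Dotted lines mark 0.58 in either direction, and the 10 lay above 0 in endothelial-like cells (0.07 to 0.32) and below 0 in oligodendrocyte-like cells (-0.31 to -0.13), with none called in any panel.

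Whether the inhibitor difference itself varied between classes was tested for each gene as a class-by-group interaction with the animals' sums. Of 12388 genes 0.476% passed at an adjusted p under 0.05, and 0 of the 10 did, with an adjusted p of 1 for each (edgeR). The opposite directions in endothelial-like and oligodendrocyte-like cells were thus not separated by this test.

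The nuclear partners of the 10 were compared in the same fits. In all cells none of the 84 nuclear-encoded subunits of complexes I to V was called. Their fold changes were mostly above 0, with medians (log2) of 0.23 for 36 genes of complex I, 0.28 for 9 of complex III, 0.26 for 17 of complex IV and 0.28 for 18 of complex V. Of these genes 20, 7, 9 and 12 were higher at an unadjusted edgeR p under 0.05, which 6.66% of all genes had in either direction. Within classes these medians differed. In microglia-like cells they were 0.01, 0.06, 0.00 and -0.01 for complexes I, III, IV and V, and in choroid plexus-like cells -0.03, -0.12, -0.16 and -0.09. In the same order they were 0.13, 0.15, 0.09 and 0.12 in endothelial-like and 0.14, 0.26, 0.145 and 0.12 in ependymal-like cells. Mural-like cells had 0.14, 0.15, 0.14 and 0.17, and astrocyte-like cells 0.08, 0.16, 0.05 and 0.03. Macrophage/monocyte-like cells had 0.10, 0.29, -0.02 and 0.13. Neuron-like cells, where the 10 were mostly below 0, had 0.33 for complex I and 0.24 for complex III. In oligodendrocyte-like cells the nuclear subunits together gave 280 and 274 per 10000 UMIs of genes not encoded in mitochondria without inhibitors. With inhibitors they gave 261 and 255. The 10 went the other way there, with 622 and 671 without inhibitors against 717 and 768 with them. The smallest p-values within complexes I, II, III, IV and V belonged to Ndufc2 at 0.45 ± 0.0892 (edgeR, adjusted p = 0.235), Sdhb at 0.26 ± 0.0950 (adjusted p = 0.701), Uqcrb at 0.46 ± 0.0997 (adjusted p = 0.347), Cox4i1 at 0.34 ± 0.0786 (adjusted p = 0.368) and Atp5b at 0.45 ± 0.0966 (adjusted p = 0.336). The apparatus that makes and reads mitochondrial RNA had no call in all cells. Its genes of smallest p were Pnpt1, an RNA-degrading enzyme, at 0.39 ± 0.190, Mgme1, a nuclease of mitochondrial DNA, at 0.24 ± 0.192, Tufm, the mitochondrial elongation factor, at 0.31 ± 0.143, and Mrpl39, of the mitochondrial ribosome, at 0.46 ± 0.145, with adjusted p-values of 0.790, 0.880, 0.788 and 0.677 (edgeR). Among cytosolic ribosomal proteins it was Rps27l at 0.31 ± 0.104 (edgeR, adjusted p = 0.698), and among nuclear-retained RNAs Malat1 at -0.09 ± 0.0789 (adjusted p = 0.888).

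Choroid plexus-like cells were the one compared class in which genes of these lists were called. Higher without inhibitors were 5 of 36 complex I genes, 1 of 9 of complex III and 1 of 18 of complex V, and lower was 1 of 15 of complex IV. Over all genes of this class 4.3% were called higher and 0.967% lower. Most members of these lists were nonetheless below 0, with 15 of 36 above 0 for complex I, 3 of 9 for complex III, 2 of 15 for complex IV and 6 of 18 for complex V. At an unadjusted edgeR p under 0.05, 10 were higher and 5 lower for complex I, 2 and 3 for complex III, 1 and 7 for complex IV, and 5 and 7 for complex V. Ndufa9 had 100 and 101 CPM without inhibitors against 47.0 and 41.8 with them, a log2 fold change of 1.15 ± 0.277 (SE, edgeR, adjusted p = 0.00579). In the same test Ndufc2 rose by 0.91 ± 0.125 (edgeR, adjusted p = 5.85e-06), Ndufs3 by 0.69 ± 0.154 (adjusted p = 0.00295), Uqcrc2 by 0.63 ± 0.193 (adjusted p = 0.0371) and Atp5b by 0.67 ± 0.0980 (adjusted p = 1.26e-05). Cox7a2l, which takes part in joining respiratory complexes, fell by 0.68 (edgeR, adjusted p = 0.00147). These 6 genes were also called without the smaller cluster. Mrpl34 of the mitochondrial ribosome fell by 0.67 (edgeR, adjusted p = 0.0127), a call that was lost without that cluster (adjusted p = 0.0780). Of 79 cytosolic ribosomal proteins 3 fell, Rpl41 by 0.67, Rpl4 by 0.64 and Rps19 by 0.60.

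Of 4 tested nuclear-retained RNAs 3 rose in choroid plexus-like cells, Malat1 by 1.69 ± 0.0918, Kcnq1ot1 by 1.59 ± 0.468 and Neat1 by 1.36 ± 0.312 (edgeR, adjusted p = 6.56e-15, 0.0285 and 0.00391). Malat1 had 2423 and 2295 CPM without inhibitors against 693 and 781 with them. Without the smaller cluster Malat1 was at 1.13 ± 0.371 with an adjusted p of 0.172 and Neat1 at 0.39 ± 0.674 with an adjusted p of 0.817, so both calls were lost, and Kcnq1ot1 was not among the genes tested.

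Across classes, the nuclear subunits followed the order of the 10 only in part. Outside choroid plexus-like cells, the means of both were highest in astrocyte-like and lowest in microglia-like cells. Neuron-like cells were second for the 10. Their nuclear subunits had a mean of 273 ± 78.0 per 10000 UMIs of genes not encoded in mitochondria (SD, n = 4 animals), with 374, 209, 214 and 294. That mean lay below the 300 of ependymal-like cells, but the ranges overlapped, with 306, 317, 293 and 284 in ependymal-like cells. Over the 36 sums of 9 classes in 4 animals, which share libraries and total counts, the log2 levels of the 10 together and of the nuclear subunits together had a Pearson r of 0.397, and the list for synthesis and turnover of mitochondrial RNA had 0.523. Choroid plexus-like cells lay apart from the others. Their nuclear subunits gave 856, 947, 1082 and 1091 per 10000 UMIs of genes not encoded in mitochondria, against class means from 186 in microglia-like to 345 in astrocyte-like cells. For 64 of the 84 nuclear subunits, every choroid plexus-like sum lay above every sum of the 8 other compared classes, while in microglia-like cells 7 lay below all others. Cox8a, a small complex IV subunit, is an example in choroid plexus-like cells, at 39.3, 43.2, 58.3 and 59.6 per 10000, against 6.68 to 18.0 elsewhere.

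UMIs of the 10 per UMI of the nuclear subunits were 0.878, 0.845, 0.668 and 0.837 in the choroid plexus-like sums. This range did not overlap that of any other compared class. Neuron-like cells had the highest mean ratio, 3.77 ± 0.947 (SD, n = 4 animals), with 2.46, 4.37, 4.55 and 3.71, and astrocyte-like cells had 3.33 ± 0.264, so these overlapped. The remaining 6 classes had means between 2.28 in endothelial-like and 2.63 in macrophage/monocyte-like cells. Microglia-like cells, lowest in share, had a ratio of 2.52 ± 0.0910, since their nuclear subunits were low too.

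**Figure D5:**
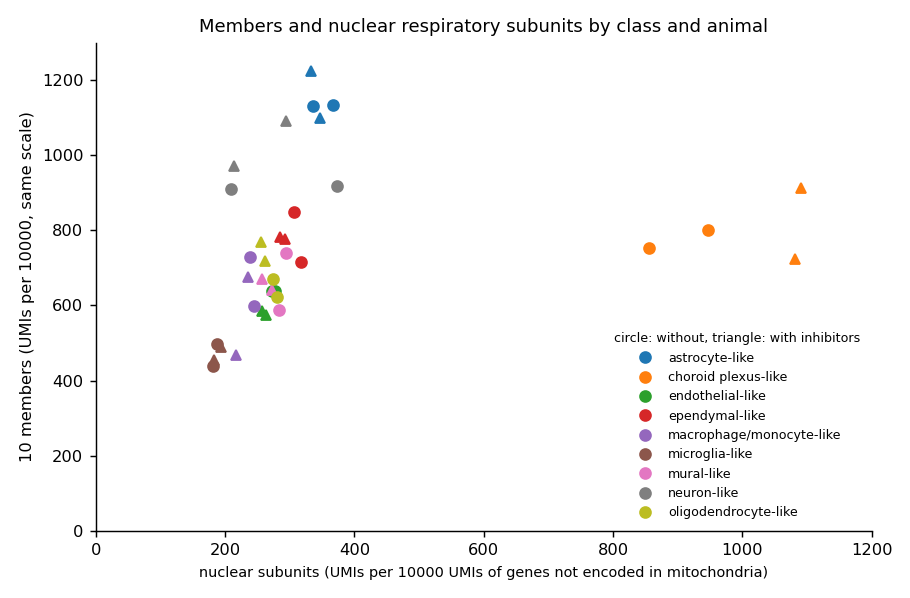
UMIs of the 10 messenger RNAs (y axis) against UMIs of the nuclear-encoded subunits of complexes I to V (x axis), both per 10000 UMIs of genes not encoded in mitochondria, 1 point per class and animal. Choroid plexus-like sums lay at 856 to 1091 on the x axis, far to the right of all others, with levels of the 10 in the range of several other classes.

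Among 3786 genes with a mean of at least 50 CPM, here of the UMIs of genes not encoded in mitochondria, patterns most like that of the summed 10 over the same 36 sums included those of Ubqln2 (Pearson r of 0.833), Abat (0.823), Nrcam (0.812) and Gpm6a (0.8002). Abat, a mitochondrial enzyme that breaks down GABA, was at 168 CPM in astrocyte-like and 172 CPM in ependymal-like cells. Ubqln2 binds ubiquitin, and Nrcam and Gpm6a are proteins of the neural cell surface. The lowest coefficients belonged to Pnrc1 (-0.832), Arpc1b, of the actin-branching complex (-0.825), and the phosphatase subunit Ppp1ca (-0.814). These coefficients are descriptions over sums that share 4 libraries.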

How the data were processed

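Whole-brain cells of 4 mice were profiled, 2 animals without and 2 with inhibitors, 1 library each. The deposited values are raw UMI counts per gene and barcode, which the authors made with Cell Ranger 3.0.0 on the mm10 (GRCm38) build, per the submitters' processing notes and the study's methods. No other normalization was applied to the deposited counts.

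Barcodes with at least 400 genes and at most 20% mitochondrially encoded UMIs were kept, and 206 barcodes (2.05% of those passing) most like simulated doublets were removed (20 neighbours, 2 simulated doublets per cell, 0.8% per 1000 barcodes). Doublets were scored and cells clustered without the mitochondrially encoded genes and the study's 34 activation genes. Clustering used 2000 variable genes, 30 principal components, 15 neighbours and Leiden resolution 1 (scikit-learn 1.9.0, leidenalg 0.10.2). Clusters were named from markers of 16 cell types, of which at least 3 had to reach a log2 fold of 1 in 10% of cells. The names are rebuilt and may differ from the study's. Counts were summed per class and animal and tested with edgeR 4.0.16 (quasi-likelihood, TMM, filterByExpr, Benjamini-Hochberg adjustment over all genes tested) in R 4.3.3. Shares of UMIs and differences between classes were described without a test. Standard errors and p-values measure the spread between these 4 animals, and the Wilson interval covers counting error only.

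The members and gene lists were chosen with earlier results of these data known. All 13 mitochondrially encoded genes are named. From each other list up to 3 called genes with the largest fold change in a class are named, or, where none was called, the gene with the smallest p in all cells. The like genes are the 5 highest and 3 lowest Pearson coefficients among genes with a mean of at least 50 CPM of genes not encoded in mitochondria, on log2 with a pseudocount of 1 CPM. A gene that this rule names is not reported here. Clusters, and the features of choroid plexus-like cells among the nuclear subunits, were singled out after their values were seen. The alternatives were DESeq2 1.42.0, other scalings, no filter on low counts, other limits on the mitochondrial share, doublets kept, thinning, medians over cells, a replicate block and each animal left out in turn. Leaving out single clusters was chosen after seeing the data. The main fits did not pair the animals by replicate number (the correlation is given with the limits). The scripts were tested on simulated data first. The 84 symbols of nuclear subunits are 85 rows of the files.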

Additional observations from a re-analysis of the deposited data

Results flagged for a closer look

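The share of UMIs from the 10 messenger RNAs moved in opposite directions between groups in some classes, in both animals of each group. In endothelial-like cells it was higher without inhibitors by 0.530 percentage points, and in neuron-like cells it differed by -0.966 points, so these effects lay 1.4961 points apart. In oligodendrocyte-like cells the difference was -0.843 points, which is 1.3727 points from that of endothelial-like cells. These differences between shares were not tested. The test of each gene for a class-by-group interaction called 0 of the 10 (edgeR, adjusted p of 1 for each). The neuron-like direction turned without the limit on the mitochondrial share, and 17.38% of barcodes nearest to that class lay above this limit. The part of the limit in these differences was not tested further.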

How the results depend on the processing

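None of the 10 was called in any of 136 alternative counts. Of 1358 alternative fits of a member, 1210 moved by less than 1 SE and 160 changed sign, with 32 of these in choroid plexus-like, 27 in neuron-like, 26 in mural-like and 0 in endothelial-like and oligodendrocyte-like cells. The deviations of replicate 1 of both groups from their group means were hardly correlated over genes (r = 0.066, log2 CPM, all cells). With the replicate block 0 members were called and 0 changed sign. The block gave 37 called genes in all cells, against 5 in the main fit. Olfactory ensheathing-like cells, 29 and 32, came only from replicate 1 of each group. Whether same-numbered animals were handled together was not tested.

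Share differences, without minus with inhibitors in percentage points, moved beyond the replicate spread as follows, and the cause was not tested. Medians over cells gave 0.2245 in all cells, -1.2293 in choroid plexus-like, 0.4629 in endothelial-like and -0.0094 in neuron-like cells. Without a mitochondrial limit the differences were -3.4074 in choroid plexus-like and 1.6576 in neuron-like cells, and with a limit of 10% they were 0.3494 in endothelial-like and 0.481 in neuron-like cells. Without the choroid plexus-like cluster of 36 cells they were -0.2239 in all cells and -1.9832 in choroid plexus-like cells.

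With each animal left out, the ranges were -0.1795 to 0.1473 in all cells, -0.7305 to 0.2657 in astrocyte-like, -1.1704 to 0.4617 in choroid plexus-like, 0.481 to 0.5795 in endothelial-like, -0.5502 to 0.5899 in ependymal-like, -0.1158 to 1.7594 in macrophage/monocyte-like, -0.3056 to 0.2278 in microglia-like, -0.6005 to 0.7327 in mural-like, -1.4573 to -0.4747 in neuron-like and -1.0637 to -0.6213 in oligodendrocyte-like cells.

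Counts of all genes called depended more on the setting. In all cells 5 were called, against 38 with DESeq2, 117 without the filter on low counts, 37 with the replicate block, 2 with total UMIs and 0 to 93 with an animal left out. In choroid plexus-like cells 245 were called, against 117 with DESeq2, 71 without a mitochondrial limit and 146 to 234 with an animal left out. There 200 were higher and 45 lower, against 101 and 155 with total UMIs. In oligodendrocyte-like cells 13 were called, against 4 with DESeq2, 25 without the filter, 22 with total UMIs, 8 without a mitochondrial limit and 18 to 33 with an animal left out. In ependymal-like cells 0 genes were called with edgeR and with DESeq2, and 170 had an unadjusted p under 0.05. In endothelial-like cells 3 were called, 13 with the block, 0 with DESeq2 and 0 to 49 with an animal left out.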

Other observations

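Classes with under 20 cells in at least 1 animal entered no comparison, and their shares are pooled over the animals. Erythrocyte-like cells, 71 in all, had the lowest share of the 10 among named classes, 2.55% (Wilson 95% interval 2.50% to 2.60%). By animal it was 2.47% and 2.46% without inhibitors and 1.93% and 3.35% with inhibitors, on 21, 32, 5 and 13 cells. All of these lay outside the interval, which covers counting error only. There mt-Atp6 gave 23.8% and mt-Nd1 9.64% of the UMIs of the 10, as means of the 2 animals without inhibitors, beside 21.9% and 10.5% over all cells of the 4 animals. Olfactory ensheathing-like cells, the glia along the olfactory nerve, had 9.53% on 61 cells, which came from replicate 1 of each group only (29 and 32 cells). Fibroblast-like cells had 8.81% on 129 cells, and mt-Cytb gave 17.2% of the UMIs of the 10 there.

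Oligodendrocyte precursor-like cells had 6.92% on 75 cells and neural progenitor-like cells 5.31% on 107 cells. The unnamed cluster, led by Ccl5 and Nkg7, genes of cytotoxic lymphocytes, had 6.72% on 141 cells and similar values in all animals, 6.86% and 6.86% without inhibitors and 6.53% and 6.53% with inhibitors. Within oligodendrocyte-like cells, the cluster led by Opalin had 6.99% and the one led by Klk6 5.16%, and in both the animals without inhibitors were lower.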
